A study of Mus musculus with 19 samples.

Results

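The Notch pathway was read here through 10 genes: the ligands Jag1, Jag2 and Dll4, the receptors Notch1, Notch2, Notch3 and Notch4, and the target genes Hes1, Hey2 and Heyl. They were picked by name, with earlier results of these data known. The choice was from the 18193 genes that the annotation pairs with a probe set of the MOE430 2.0 array. All 21 probe sets of the 10 genes, of 45037 that are no controls, passed the filter on low signal. The arrays compared the epithelium and mesenchyme of the embryonic prostate region with those of the skin. The 4 tissues of C57BL/6 mouse embryos at embryonic day 16, each sample a pool of several embryos, were 6 samples of urogenital sinus epithelium (UGE), 5 of urogenital sinus mesenchyme (UGM), 4 of back epidermis and 4 of back dermis. No genotype or agent set the groups apart, but UGE and UGM were separated after trypsin and the skin layers after overnight dispase, so site and separation method cannot be told apart. Skin and urogenital sinus were taken from the same embryos, and 1 embryo can therefore have given tissue to pools of several groups.

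In Notch signaling a membrane-bound ligand of the Jagged or Delta-like family on one cell binds a Notch receptor on its neighbour, and the receptor is cleaved so that its intracellular domain moves to the nucleus. There it joins the DNA-binding protein Rbpj and turns on transcriptional repressors of the Hes and Hey families. In the epidermis the pathway is known for guiding basal keratinocytes towards the spinous layer, in the prostate for roles in epithelial growth and branching, and in blood vessels, where Dll4, Notch4, Hey2 and Heyl are well known, for arterial and mural cell identity.

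All values are log2 of the deposited intensity of a probe set, and intensity compares samples for 1 probe set, not 1 gene with another. The arrays had close medians, 6.25 to 6.35 on the log2 scale, and lower quartiles of 4.70 to 4.92, which serve below as marks of a low signal. Samples of a group correlated at r = 0.960 or above. A probe set was called where limma gave a Benjamini-Hochberg adjusted p under 0.01 over all 41549 tested probe sets and the change was over 2-fold. A gene is read from its leading probe set, which of its tested ones had the highest mean over the 19 arrays.

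Defining markers bore out the tissue labels, with exceptions in the skin and in some UGE samples. Of 16 epithelial markers, 16 were called higher in UGE than in UGM and 12 higher in epidermis than in dermis. Of 15 mesenchymal markers, 15 were called lower in UGE than in UGM and 13 lower in epidermis than in dermis. Epcam, an adhesion molecule of epithelia, averaged 11.56 ± 0.27 in UGE, 6.98 ± 0.79 in UGM, 9.02 ± 0.33 in epidermis and 7.62 ± 0.26 in dermis (SD, n = 6, 5, 4 and 4). The keratin gene Krt14, however, averaged 13.47 ± 0.28 in epidermis and 12.79 ± 0.34 in dermis, and the summed intensity of the epithelial list was 33076 to 65625 in dermis against 2272 to 6852 in UGM. Col1a1, a fibroblast collagen, averaged 10.36 ± 0.58 in epidermis and 12.36 ± 0.18 in dermis, so each skin layer also gave signal of markers of the other. In UGE it averaged 7.52 ± 2.08. The mesenchymal list summed to 12840, 22732 and 22937 in UGE replicates 1 to 3, and to between 6188 and 8150 in replicates 4 to 6.

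Of the 10 genes, 7 were called between UGE and UGM, 4 higher in UGE (Jag2, Notch1, Notch3, Hes1) and 3 lower (Notch4, Hey2, Heyl), where 13.3% of all tested probe sets were called, 5.85% higher and 7.40% lower. Between epidermis and dermis 5 were called, 2 higher in epidermis (Jag1, Notch1) and 3 lower (Notch4, Hey2, Heyl), where 13.7% of all probe sets were called, 6.07% higher and 7.60% lower. The median change over all 21 probe sets of the 10 genes was 0.03 for UGE minus UGM and 0.13 for epidermis minus dermis, beside 0.06 and 0.05 over all tested probe sets. Over the 10 leading probe sets, which are the brighter ones, it was 0.26 and 0.35. Of all 21 probe sets, 5 were called higher and 4 lower in UGE than in UGM. Between epidermis and dermis, 3 of the 21 were called higher in epidermis and 4 lower. The members were chosen with earlier results of these data known, so these counts do not test whether the family differs from other genes.

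**Figure D1:**
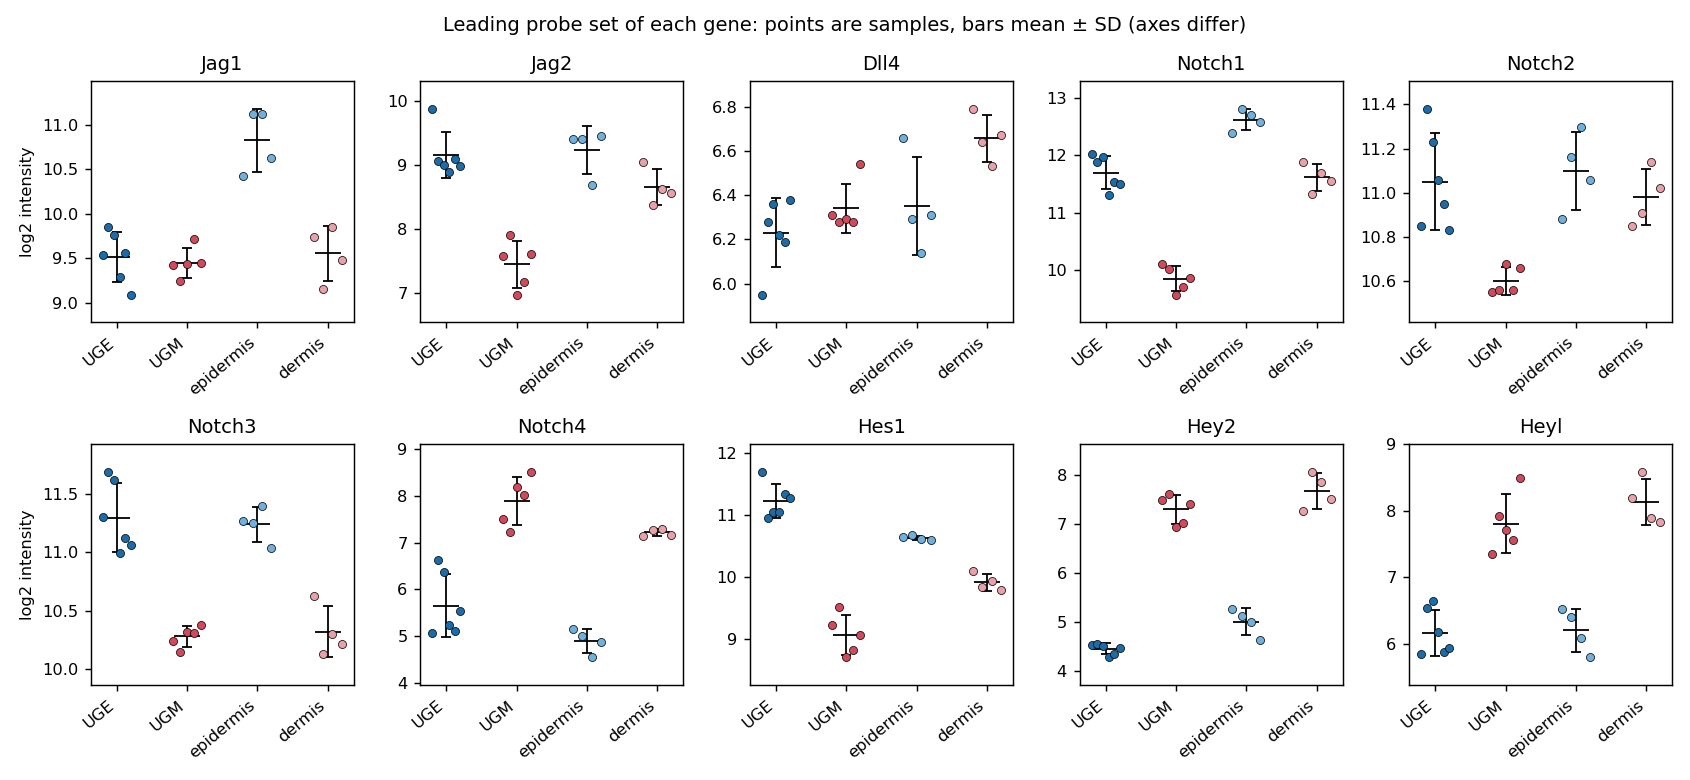
Log2 intensity of the leading probe set of each of the 10 genes in every sample, by tissue, with a vertical axis of its own for each gene. Points are samples and bars the mean ± SD. Hes1 steps down through UGE, epidermis, dermis and UGM without overlap, Jag1 is high in epidermis alone, and Notch4, Hey2 and Heyl are higher in both mesenchymes.

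Of the ligands, Jag2 set UGE apart from UGM and Jag1 set epidermis apart from the other 3 tissues. Jag2, a ligand of epithelia, lay at 8.89 to 9.88 in UGE (median 9.04), against 7.58, 7.90, 6.97, 7.17 and 7.60 in UGM replicates 1 to 5. All UGE samples were above all UGM samples, a difference of 1.71 ± 0.20 (SE; 3.28-fold, adjusted p = 2.54e-05), and the other Jag2 probe set, 1426431_at, was 2.05 ± 0.15 higher in UGE (adjusted p = 3.72e-07). In the skin it lay at 9.41, 9.41, 8.68 and 9.45 in epidermis and at 9.05, 8.38, 8.62 and 8.56 in dermis. These ranges overlapped, and the difference of 0.58 ± 0.20 was not called (adjusted p = 0.0476). No difference was called between the 2 epithelia (UGE minus epidermis -0.08 ± 0.21, adjusted p = 0.802), while UGM lay below dermis without overlap (UGM minus dermis -1.21 ± 0.22, 2.32-fold, adjusted p = 0.000252).

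The difference between the sites, UGE minus UGM less epidermis minus dermis, was 1.13 ± 0.31 for the leading Jag2 probe set, which missed the call (adjusted p = 0.0122), and 1.48 ± 0.25 for 1426431_at, which was called (adjusted p = 0.000236). The leading probe set passed the threshold without UGM replicate 2 (1.25, adjusted p = 0.00632) and with the replicate number as a block (1.17, adjusted p = 0.00663), and the mean of both probe sets passed it too (1.30, adjusted p = 0.000855). In tissue samples fewer cells of a type and less RNA per cell cannot be told apart, and Jag2 moved with the epithelial markers also within the mesenchymes. Dermis replicate 1, with the highest epithelial median of the dermis samples (10.92), had their highest Jag2, and dermis replicate 2, with the lowest (9.11), their lowest. Without dermis replicate 1, UGM minus dermis was -1.08 (adjusted p = 0.00168), and the part of the epithelial signal in this difference was not tested.

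The 300 bases around the start of Jag2 (RefSeq, build GRCm38.p6, chr12:112929446-112929745, minus strand) are shown because they stand at one end of the family in base composition. They hold 63 CpG, against a median of 7 and an upper quartile of 20 over 32851 promoters of this length, and 86.0% G and C. Capitals mark the GC box GGGCGG on either strand, which is found 5 times with 1 overlapping pair and is held by 35.7% of all promoters.
Jag2: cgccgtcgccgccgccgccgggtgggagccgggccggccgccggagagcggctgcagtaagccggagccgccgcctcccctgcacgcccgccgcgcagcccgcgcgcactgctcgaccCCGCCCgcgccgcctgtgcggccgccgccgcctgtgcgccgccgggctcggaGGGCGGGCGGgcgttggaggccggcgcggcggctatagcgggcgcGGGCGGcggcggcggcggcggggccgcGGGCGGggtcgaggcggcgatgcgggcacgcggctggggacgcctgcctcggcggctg

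Jag1, a ligand best known from bile duct and heart development, lay at 10.42, 11.12, 11.12 and 10.63 in epidermis, against 9.74, 9.15, 9.85 and 9.48 in dermis. No dermis sample reached an epidermis sample, and the difference was 1.27 ± 0.20 (2.41-fold, adjusted p = 0.000881). It was 9.09 to 9.85 in UGE (median 9.55) and 9.42, 9.24, 9.43, 9.71 and 9.44 in UGM, 2 ranges that overlapped, with a difference of 0.06 ± 0.14 (adjusted p = 0.768). Set against epidermis, UGE was lower without overlap (UGE minus epidermis -1.31 ± 0.17, 2.48-fold, adjusted p = 6.79e-06).

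The epithelium to mesenchyme difference of Jag1 was itself smaller in the urogenital sinus than in the skin (interaction -1.20 ± 0.25, adjusted p = 0.00154). The second probe set, 1421106_at, also had its highest values in epidermis. It lay between 4.81 and 5.40 in UGE, between 4.83 and 5.74 in UGM, at 6.63, 7.40, 7.68 and 7.88 in epidermis and between 5.85 and 6.07 in dermis. Its UGE and UGM values lay near the lower quartile of the arrays, its epidermis minus dermis difference was 1.42 ± 0.23 (adjusted p = 0.00102), and its interaction was -1.55 ± 0.30 (adjusted p = 0.000721). The third, 1421105_at, stayed at means of 5.37 to 5.68 in all tissues and was called nowhere. With the methods' t-test, Jag1 missed the threshold between epidermis and dermis (adjusted p = 0.0114).

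Dll4, the ligand of endothelial tip cells, lay near the array median in every tissue and no comparison of it was called. The leading probe set had 5.95 to 6.38 in UGE (median 6.25), 6.31, 6.28, 6.29, 6.28 and 6.54 in UGM, 6.66, 6.29, 6.14 and 6.31 in epidermis and 6.79, 6.64, 6.53 and 6.67 in dermis. UGE and UGM overlapped, as did epidermis and dermis, with differences of -0.11 ± 0.09 (adjusted p = 0.408) and -0.30 ± 0.13 (adjusted p = 0.0952). The other Dll4 probe set, 1421827_at, was lower in UGE than in UGM without overlap, but the difference of -0.43 ± 0.12 missed the threshold (adjusted p = 0.0109).

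**Figure D2:**
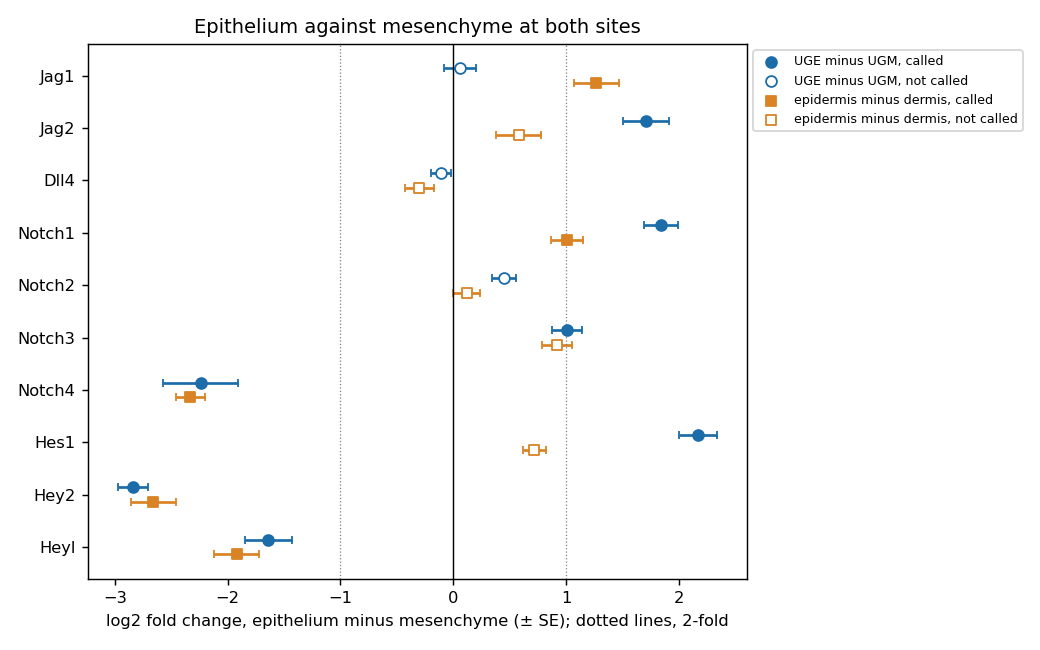
Log2 fold change (± SE, limma) of the leading probe set of each gene, UGE minus UGM as circles and epidermis minus dermis as squares, with filled symbols for called differences and dotted lines at a 2-fold change. Jag1 is called in the skin alone and Jag2, Notch3 and Hes1 in the urogenital sinus alone, of which the interaction was called for Jag1 and Hes1 on these probe sets.

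Of the receptors, Notch1 and Notch3 were higher in UGE than in UGM and Notch4 lower, and Notch2 varied least between the tissues. Notch1, the main receptor of keratinocytes and of many progenitor cells, lay at 11.31 to 12.02 in UGE (median 11.71), against 10.11, 10.03, 9.58, 9.71 and 9.87 in UGM. It lay at 12.39, 12.81, 12.70 and 12.59 in epidermis, against 11.89, 11.33, 11.69 and 11.56 in dermis. Neither pair of tissues overlapped, and the differences were 1.84 ± 0.15 (3.58-fold, adjusted p = 9.97e-07) in the urogenital sinus and 1.01 ± 0.14 (2.01-fold, adjusted p = 0.000425) in the skin. The skin call stands at the 2-fold line and was lost without epidermis replicate 2 or 3 or dermis replicate 2 or 4, at 0.91 to 0.99 with adjusted p still under 0.01.

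Between the sites, Notch1 was lower in UGM than in dermis without overlap (UGM minus dermis -1.75 ± 0.16, 3.37-fold, adjusted p = 5.31e-08). It was -1.66 (adjusted p = 4.95e-07) without dermis replicate 1, which had the highest Notch1 and the highest epithelial median of the dermis samples. The other dermis samples still summed to between 33076 and 46458 on the epithelial list, against 2272 to 6852 in UGM. Leaving out replicate 1 thus did not remove that signal, and its part in the Notch1 difference was not tested. UGE minus epidermis was -0.92 ± 0.15, short of 2-fold (adjusted p = 8.49e-05), and so was the interaction of 0.83 ± 0.22 (adjusted p = 0.00994). The second Notch1 probe set, 1418633_at, disagreed with the first. Its UGE minus UGM difference was 0.72 ± 0.17 (1.65-fold, not called), and its UGE minus epidermis difference was -1.76 ± 0.16 and was called (3.38-fold, adjusted p = 6.96e-08). Its interaction was of the other sign, -0.19 ± 0.24 (adjusted p = 0.674), as the difference in the skin was 0.91 ± 0.13.

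Notch3, a receptor of vascular smooth muscle and pericytes that epithelia also carry, lay at 10.99 to 11.69 in UGE (median 11.21), against 10.24, 10.15, 10.32, 10.31 and 10.38 in UGM. It lay at 11.27, 11.25, 11.40 and 11.04 in epidermis, against 10.63, 10.13, 10.30 and 10.22 in dermis. Both epithelia were above both mesenchymes in every sample, whereas the mural markers ran the other way, with 9 of 10 called lower in UGE than in UGM and 8 of 10 lower in epidermis than in dermis. The differences were 1.01 ± 0.13 (2.02-fold, adjusted p = 6.71e-05) and 0.92 ± 0.13 (adjusted p = 0.000492, under 2-fold). The first fell under 2-fold without UGE replicate 2 (0.94), UGE replicate 3 (0.95) or UGM replicate 2 (0.98), and was 0.84 (adjusted p = 2.04e-05) without both UGE replicates 2 and 3, the highest UGE samples, while the second passed 2-fold without dermis replicate 1 (1.02, adjusted p = 0.000202). UGE replicates 2 and 3 also had the highest mural sums (3738 and 3684) and mesenchymal medians (8.68 and 8.88) of UGE. The part of mural and mesenchymal cells in the Notch3 values was not tested. No difference between the sites was called, with 0.06 ± 0.14 for UGE minus epidermis and -0.04 ± 0.14 for UGM minus dermis. The other Notch3 probe set, 1421964_at, gave 0.99 ± 0.16 for UGE minus UGM (1.99-fold, adjusted p = 0.000401). Its epidermis minus dermis difference was 0.90 ± 0.14 (adjusted p = 0.000921). Both were under 2-fold and not called.

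Notch2, a receptor of wide expression, had 10.83 to 11.38 in UGE (median 11), 10.55, 10.56, 10.68, 10.56 and 10.66 in UGM, 10.88, 11.16, 11.30 and 11.06 in epidermis and 10.85, 10.91, 11.14 and 11.02 in dermis. Every UGM sample lay below every sample of the other tissues, with 0.45 ± 0.11 for UGE minus UGM (adjusted p = 0.00563) and -0.38 ± 0.11 for UGM minus dermis (adjusted p = 0.0147), both short of 2-fold and not called. The second Notch2 probe set was at 4.87 to 5.22 on average, near the lower quartile of the arrays.

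Notch4, a receptor known mainly from endothelium, ran the other way at both sites. It lay at 5.06 to 6.62 in UGE (median 5.39), against 7.51, 7.23, 8.19, 8.02 and 8.52 in UGM. It lay at 5.15, 5.0, 4.55 and 4.88 in epidermis, against 7.15, 7.28, 7.30 and 7.17 in dermis. Every epithelial value lay below every mesenchymal one, with -2.24 ± 0.33 for UGE minus UGM (4.72-fold, adjusted p = 0.000165) and -2.33 ± 0.13 for epidermis minus dermis (adjusted p = 3.93e-06), where the epidermis values lay near the lower quartile of the arrays. The interaction was 0.09 ± 0.42 (adjusted p = 0.931).

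UGE replicates 2 and 3, at 6.62 and 6.38, were the highest UGE samples of Notch4, and they also had the highest endothelial medians (6.09 and 5.91) and mesenchymal medians (8.68 and 8.88) of UGE. Without them UGE minus UGM was -2.66 (adjusted p = 3.72e-06). Between epithelium and mesenchyme, endothelial markers moved with Notch4 as a list. Of these markers, 13 of 15 were called lower in UGE than in UGM and 15 of 15 lower in epidermis than in dermis. Their summed intensities lay between 855 and 2289 in UGE, 4811 and 6354 in UGM, 1006 and 1536 in epidermis and 8358 and 11308 in dermis. Between the sites the signs were opposite. The list had median changes of -0.42 for UGE minus epidermis and -0.60 for UGM minus dermis. Notch4 had 0.76 and 0.67, neither called. The part of endothelial markers in the Notch4 differences was not tested. The other 2 Notch4 probe sets, 1456263_at and 1436901_at, averaged 4.42 to 4.89 in all tissues and showed no such difference, and the mean over the 3 probe sets gave -0.75 in the urogenital sinus and -0.73 in the skin, under 2-fold. With 50 added to each intensity before the logarithm, the differences of the leading probe set were -1.5 in the urogenital sinus and -1.32 in the skin, still called.

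The start of Notch4 (RefSeq, build GRCm38.p6, chr17:34564045-34564344, plus strand) is shown for its 5 CpG in 300 bases, the fewest of the 8 members with an entry in the promoter table. It holds 58.3% G and C and no GC box. Capitals mark the AP-1 motif TGANTCA, which reads the same on both strands, spans the start and is held by 7.8% of all promoters. Notch4 alone of the 8 held it.
Notch4: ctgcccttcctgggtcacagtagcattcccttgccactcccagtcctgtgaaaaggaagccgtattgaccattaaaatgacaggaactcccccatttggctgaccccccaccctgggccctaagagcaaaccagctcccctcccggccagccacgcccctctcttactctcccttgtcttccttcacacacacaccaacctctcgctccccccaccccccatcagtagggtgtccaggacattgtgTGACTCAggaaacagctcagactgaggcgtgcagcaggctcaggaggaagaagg

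**Figure D3:**
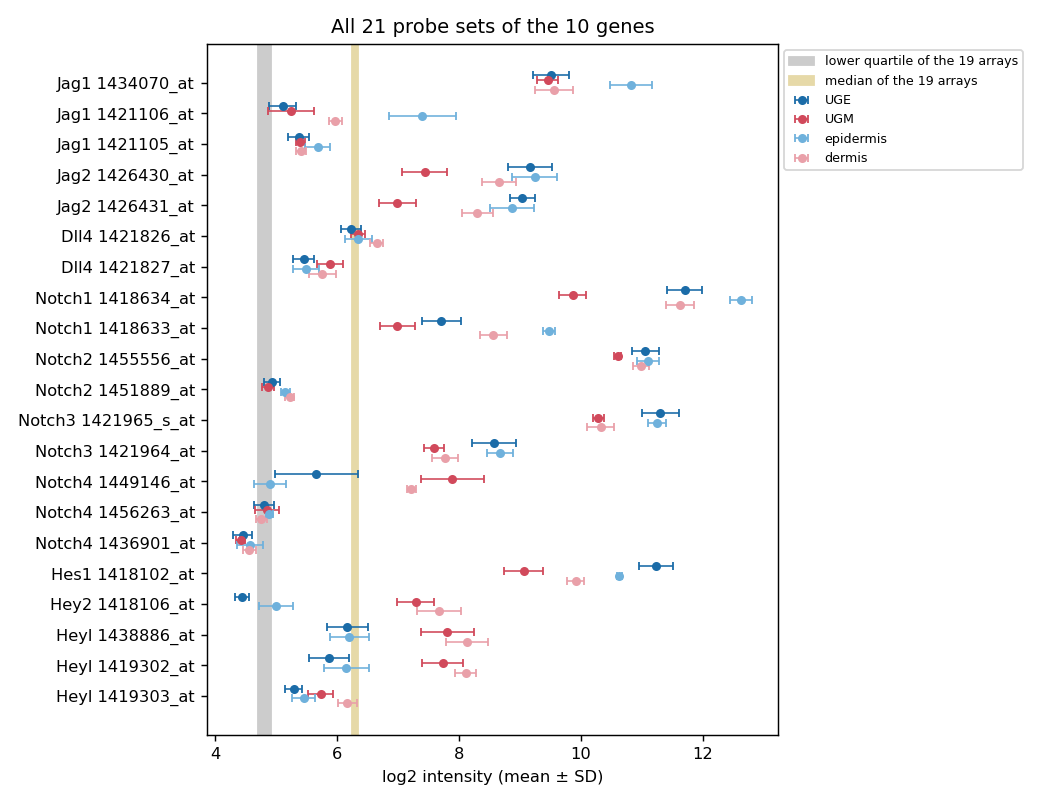
Mean ± SD of log2 intensity in each tissue for all 21 probe sets of the 10 genes, with the range of the lower quartiles (grey band) and of the medians (yellow band) of the 19 arrays. Both Jag2 and both Notch3 probe sets have both epithelial means above both mesenchymal ones, and all Heyl probe sets have them below, while the lower Notch2 and Notch4 probe sets lie near the grey band in every tissue.

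The targets split in 2. Hes1 ran with the epithelia, and Hey2 and Heyl with the mesenchymes. Hes1, a repressor that holds many progenitor cells back from differentiation and is also driven by other signals, lay at 10.95 to 11.70 in UGE (median 11.17), against 9.22, 9.51, 8.70, 8.82 and 9.06 in UGM. It lay at 10.65, 10.67, 10.61 and 10.60 in epidermis, against 10.10, 9.83, 9.93 and 9.78 in dermis. The 4 tissues formed steps without any overlap between neighbours, UGE highest, then epidermis, dermis and UGM.

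UGE exceeded UGM by 2.17 ± 0.17 for Hes1 (4.50-fold, adjusted p = 6.17e-07), while epidermis exceeded dermis by 0.72 ± 0.10 (1.65-fold, adjusted p = 0.000396), which was not called for its size. The interaction of 1.45 ± 0.22 was called (adjusted p = 6.36e-05). UGE minus epidermis was 0.60 ± 0.15 (adjusted p = 0.00417) and UGM minus dermis -0.85 ± 0.16 (adjusted p = 0.000283), opposite in sign and each short of 2-fold. Without dermis replicate 1, which had the highest Hes1 of the dermis samples, the interaction was 1.38 (adjusted p = 0.000214) and the UGM minus dermis difference -0.79 (adjusted p = 0.00175). The other dermis samples kept epithelial signal, as given for Notch1, so leaving out replicate 1 did not remove it. Of the 16 epithelial markers, 14 were also called with a positive interaction. In UGM against dermis, 10 of them were called lower and 3 higher. Their part in the Hes1 differences was not tested.

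Hey2, a repressor known from arteries, heart and vascular smooth muscle, was lower in both epithelia than in their mesenchymes. It lay at 4.27 to 4.55 in UGE (median 4.49), under the lower quartile of every array, against 7.49, 7.61, 6.93, 7.01 and 7.40 in UGM. It lay at 5.26, 5.12, 5.0 and 4.62 in epidermis, against 7.25, 8.06, 7.85 and 7.50 in dermis. No epithelial sample came within 1 log2 unit of a mesenchymal one, and the fitted differences were -2.84 ± 0.13 for UGE minus UGM (adjusted p = 5e-09) and -2.66 ± 0.20 for epidermis minus dermis (adjusted p = 1.01e-05). The epithelial signal was so low that no fold is given. With 50 added to each intensity the differences were -1.53 and -1.63, still called, and in the urogenital sinus smaller than those of Hes1 (2.07) and Notch1 (1.79) on that scale.

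The start of Hey2 (RefSeq, build GRCm38.p6, chr10:30842734-30843033, minus strand) is shown because Hey2 was the only one of the 8 members with a promoter entry that held the core letters TGGGAA read by Rbpj, the DNA-binding partner of Notch. The other 2 targets, Hes1 and Heyl, had no promoter entry and were not searched, so Hey2 was the only target among the 8. Capitals mark both matches, 1 on each strand, at positions -207 to -202 (as TTCCCA) and -3 to 3 from the start. Neither overlaps a GC box, and 25.6% of all promoters of this length hold at least 1 match.
Hey2: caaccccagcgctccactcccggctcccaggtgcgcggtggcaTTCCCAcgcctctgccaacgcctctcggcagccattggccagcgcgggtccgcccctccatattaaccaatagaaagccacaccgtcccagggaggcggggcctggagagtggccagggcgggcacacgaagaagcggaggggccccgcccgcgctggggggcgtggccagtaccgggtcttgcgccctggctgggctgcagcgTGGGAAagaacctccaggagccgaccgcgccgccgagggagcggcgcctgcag

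Heyl, a repressor known from mural cells and somites, followed Hey2. It lay at 5.85 to 6.64 in UGE (median 6.06), against 7.35, 7.92, 7.71, 7.56 and 8.50 in UGM. It lay at 6.52, 6.41, 6.09 and 5.80 in epidermis, against 8.19, 8.59, 7.90 and 7.84 in dermis. The epithelia again lay below the mesenchymes in every sample, with -1.64 ± 0.21 for UGE minus UGM (3.11-fold, adjusted p = 6.32e-05) and -1.92 ± 0.20 for epidermis minus dermis (3.80-fold, adjusted p = 7.25e-05). In the same comparisons the probe set 1419302_at gave -1.85 ± 0.19 and -1.96 ± 0.18, both called, and 1419303_at gave -0.43 ± 0.11 and -0.72 ± 0.13, neither over 2-fold.

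Between epithelium and mesenchyme, Hey2 and Heyl moved with the vascular lists. The mural markers summed to between 1143 and 3738 in UGE, 22654 and 25657 in UGM, 1037 and 2538 in epidermis and 12085 and 14195 in dermis. Like the endothelial sums above, these were lower in each epithelium than in its mesenchyme. Between the mesenchymes the lists went opposite ways, with mural sums higher in UGM than in dermis and endothelial sums lower. Hey2 and Heyl averaged 7.29 and 7.81 in UGM and 7.67 and 8.13 in dermis, differences that were not called. Over the 19 samples, which fall into 4 tissues, Hey2 followed the endothelial median at r = 0.98 and the mural one at r = 0.97, and Heyl both at r = 0.94, but macrophage markers gave 0.96 and 0.95 as well, so the coefficients mostly restate the step between tissues. Of the vascular markers, 2 defining ones had low signal in the epithelia, with Cdh5 at 5.25 ± 0.56 in UGE, 8.54 ± 0.34 in UGM, 5.82 ± 0.25 in epidermis and 9.56 ± 0.32 in dermis, and Pecam1 at 4.71 ± 0.16, 5.73 ± 0.28, 5.09 ± 0.16 and 6.33 ± 0.28 in the same order. Others kept signal above the array median there. The endothelial gene Eng averaged 7.97 ± 0.27 in UGE, 8.97 ± 0.10 in UGM, 7.95 ± 0.29 in epidermis and 9.47 ± 0.15 in dermis, and the smooth muscle actin gene Acta2 8.66 ± 1.57, 13.77 ± 0.07, 9.21 ± 0.65 and 12.23 ± 0.21 in the same order. The pericyte genes Pdgfrb and Rgs5 averaged 7.24 ± 2.77 and 8.70 ± 0.95 in UGE, against 12.28 ± 0.45 and 9.08 ± 0.11 in UGM, and the endothelial gene Sox17 averaged 7.00 ± 2.22 in UGE and 9.09 ± 0.24 in UGM, a difference that was not called. Macrophage markers were called lower in 4 of 7 in UGE and 6 of 7 in epidermis, and erythroid markers in 3 and 4 of 5. What part these cells had in Hey2 and Heyl was not tested.

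**Figure D4:**
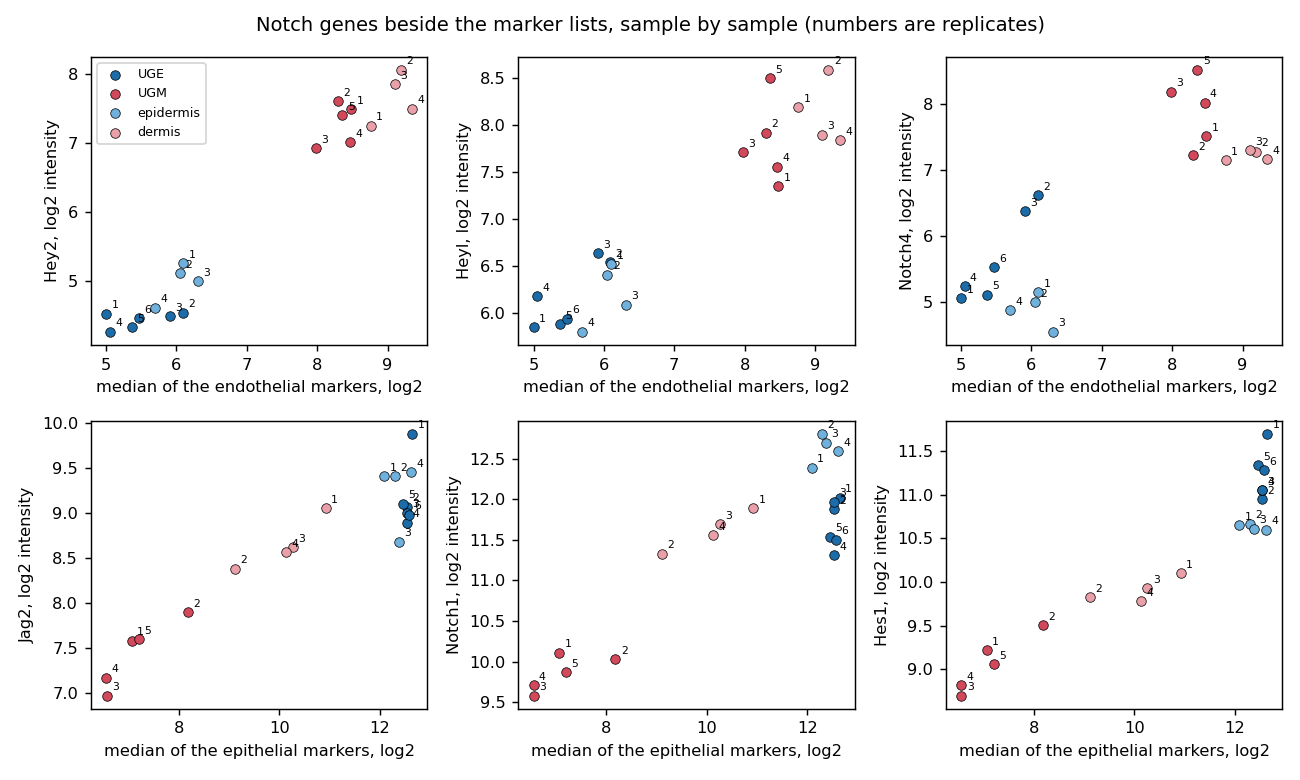
Log2 intensity of 6 Notch genes in each of the 19 samples (vertical) against the median log2 intensity of the endothelial or the epithelial marker list in that sample (horizontal), with replicate numbers beside the points. Hey2, Heyl and Notch4 are high where the endothelial median is 7.98 or above, and dermis replicate 1 is the highest dermis sample of Jag2, Notch1 and Hes1 and of the epithelial median.

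Set site against site, 1 or 2 of the 10 genes were called, too few to set the members apart from the share of all probe sets. Between UGE and epidermis 1 gene was called, Jag1, lower in UGE, where 12.0% of all tested probe sets were called (6.98% higher in UGE and 5.01% lower). Between UGM and dermis 2 were called, Jag2 and Notch1, both lower in UGM, where 12.2% of probe sets were called (6.78% higher in UGM and 5.37% lower). The interaction was called for 2 of 10, Jag1 and Hes1, with 9.31% of all probe sets called (5.15% positive and 4.17% negative). Under 2-fold and so not called, Notch1 between UGE and epidermis and Hes1 in both comparisons had adjusted p under 0.01, as given above. For Hey2 the UGE samples did not overlap the epidermis samples, but UGE minus epidermis, -0.56 ± 0.16, was not called (adjusted p = 0.0116). For Notch4 the values were 0.76 ± 0.29 in UGE minus epidermis (adjusted p = 0.0486) and 0.67 ± 0.30 in UGM minus dermis (adjusted p = 0.0922).

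Of 40 further pathway genes, listed with earlier results of these data known, 38 were measured. Of these, 9 were called in UGE against UGM, 1 higher and 8 lower, beside 5.85% and 7.40% of all probe sets. In epidermis against dermis 9 were called, 2 higher and 7 lower, beside 6.07% and 7.60%. Nrarp, a target that feeds back on the Notch complex, was the one higher at both sites. It averaged 10.27 ± 0.16 in UGE, 9.05 ± 0.31 in UGM, 12.72 ± 0.14 in epidermis and 11.24 ± 0.54 in dermis, a difference of 1.22 ± 0.14 (adjusted p = 2.15e-05) and of 1.48 ± 0.23 (adjusted p = 0.000832). UGE minus epidermis was -2.44 ± 0.19 and UGM minus dermis -2.18 ± 0.20, both called. The dermis samples, which kept epithelial signal as given for Notch1, spread from 10.59 to 11.91 for Nrarp. The part of that signal in its UGM minus dermis difference was not tested. Dtx2, a ubiquitin ligase of the Deltex family, was 1.20 ± 0.17 higher in epidermis than in dermis (adjusted p = 0.000400).

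The other ligands ran in different directions. Dll1, a classical Delta ligand, averaged 6.50 ± 0.34 in UGE, 7.62 ± 0.13 in UGM, 8.95 ± 0.43 in epidermis and 8.94 ± 0.19 in dermis. It was lower in UGE than in UGM (-1.12 ± 0.15, adjusted p = 9.01e-05), with no difference called in the skin (0.01 ± 0.20, adjusted p = 0.987) and an interaction of -1.13 ± 0.26 (adjusted p = 0.00373). UGE minus epidermis was -2.45 ± 0.18 and UGM minus dermis -1.32 ± 0.19, both called. Dlk1, a non-canonical ligand of fetal mesenchyme, was lower in UGE than in UGM (-3.57 ± 0.53, adjusted p = 0.000181) and in epidermis than in dermis (-3.66 ± 0.48, adjusted p = 0.000284). Dlk1 was lower at the urogenital site in both layers, with -2.19 ± 0.56 for UGE minus epidermis and -2.28 ± 0.58 for UGM minus dermis. The UGE samples (6.29 to 8.70) overlapped the epidermis samples (8.13 to 10.99). The mesenchymal list summed to between 6188 and 22937 in UGE and between 37966 and 60794 in epidermis. The part of this signal in the Dlk1 difference was not tested. Dlk2, a relative of Dlk1, had higher means in the epithelia. Dlk2 gave 0.94 ± 0.09 for UGE minus UGM, without overlap but under 2-fold (adjusted p = 4.7e-06), and 0.81 ± 0.23 for epidermis minus dermis (adjusted p = 0.0208). UGM minus dermis of Dlk2 was -1.02 ± 0.17, which alone was called. The part of the epithelial signal of dermis in that difference was not tested. Dll3 was called nowhere, with -0.66 ± 0.27 in UGE minus UGM (adjusted p = 0.0737).

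Dner, a neuronal ligand-like protein, and Dtx1, a Deltex ligase, stood out in UGM. Dner averaged 5.81 ± 0.56 in UGE, 8.92 ± 0.34 in UGM, 4.76 ± 0.16 in epidermis and 6.29 ± 0.10 in dermis, and Dtx1 averaged 7.74 ± 0.95, 10.50 ± 0.29, 7.29 ± 0.21 and 7.84 ± 0.16 in the same order. UGM exceeded dermis by 2.64 ± 0.24 for Dner (adjusted p = 4.65e-08) and by 2.66 ± 0.36 for Dtx1 (adjusted p = 8.77e-06), and the interactions were -1.59 ± 0.33 and -2.21 ± 0.49, both called. Neuronal markers moved the same way: all 8 measured were called lower in UGE than in UGM and higher in UGM than in dermis, with sums between 909 and 1256 in UGE, 21238 and 28895 in UGM, 658 and 756 in epidermis and 939 and 1207 in dermis. Their part in the 2 genes was not tested.

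Of the modifiers and the nuclear machinery, Mfng, a fucose-extending enzyme that tunes which ligand a receptor answers to, was lower in UGE than in UGM (-1.43 ± 0.21, adjusted p = 0.000172) and in epidermis than in dermis (-1.75 ± 0.18, adjusted p = 6.93e-05). Its relative Lfng showed no call, with 0.27 ± 0.17 in UGE minus UGM and -0.11 ± 0.12 in epidermis minus dermis. Rbpj averaged 10.57 ± 0.10 in UGE, 11.26 ± 0.11 in UGM, 9.72 ± 0.30 in epidermis and 10.59 ± 0.15 in dermis, lower in each epithelium than in its mesenchyme without overlap but by less than 2-fold (-0.69 ± 0.08 and -0.88 ± 0.16). Egfl7, a secreted protein of endothelium, was lower in UGE than in UGM (-1.18 ± 0.16, adjusted p = 6.42e-05) and in epidermis than in dermis (-1.46 ± 0.15, adjusted p = 5.88e-05). Neurl1a, a ubiquitin ligase that acts on ligands, gave -1.24 ± 0.18 for UGE minus UGM, and Psen2, a catalytic subunit of the secretase that cleaves Notch, gave -1.23 ± 0.18 for epidermis minus dermis and -1.23 ± 0.16 for UGM minus dermis, all called lower.

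Hey1, a further target, went with Hey2 and Heyl at both sites, lower in UGE than in UGM (-1.02 ± 0.14, adjusted p = 0.000114) and in epidermis than in dermis (-1.77 ± 0.17, adjusted p = 3.91e-05). It was also called higher in UGE than in epidermis (1.47 ± 0.16, adjusted p = 5.23e-07). Hes6, which counters Hes1 in neurogenesis, was 2.08 ± 0.18 higher in UGE than in epidermis (adjusted p = 2.18e-08), with an interaction of 1.62 ± 0.26 (adjusted p = 0.000107). Dtx4 was 2.41 ± 0.18 higher in UGE than in epidermis and 1.21 ± 0.19 higher in UGM than in dermis, and epidermis minus dermis was -1.79 ± 0.16, with an interaction of 1.20 ± 0.26 (adjusted p = 0.00237). Between UGE and epidermis 4 of the 38 genes were called higher in UGE (Dner the fourth, by 1.05 ± 0.23) and 3 lower, where 12.0% of all probe sets were called. In UGM against dermis 4 were called higher (Dtx3 among them, by 1.05 ± 0.12) and 5 lower, where 12.2% were called. The interaction was called for 5, of which 2 were positive and 3 negative, where 9.31% of all probe sets were called.

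**Figure D5:**
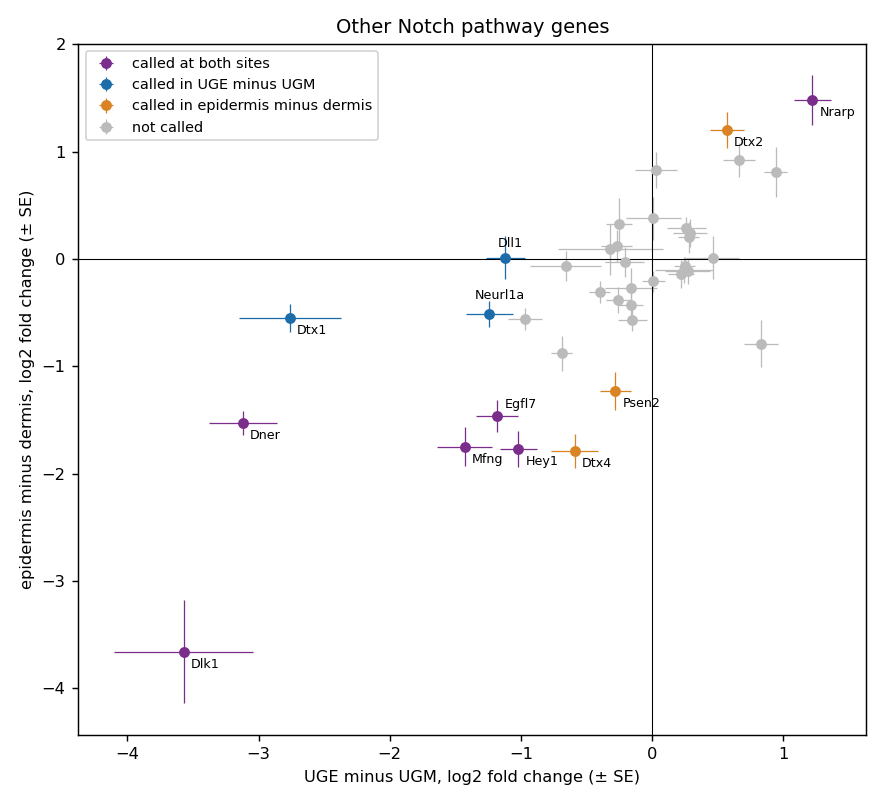
Log2 fold change (± SE, limma) of the 38 other Notch pathway genes, UGE minus UGM on the horizontal and epidermis minus dermis on the vertical axis, coloured by where the difference was called. Dlk1, Dner, Mfng, Hey1 and Egfl7 were called lower in the epithelium at both sites and Nrarp higher at both.

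Over the 19 samples the genes whose leading probe set ran most like that of Jag2 were Itgb4 (Pearson r = 0.962), Adgrg1 (0.960), Nxn (0.957), Lamb3 (0.953) and Fam241a (0.952). For Notch3 they were Pgap2 (0.973), Mark2 (0.963), Etv6 (0.962), Camsap3 (0.961) and Sec24c (0.957). For Notch4 they were Il6st (0.982), Plat (0.978), Pnmal2 (0.978), Thbs3 (0.973) and Csrp2 (0.973), and for Dll4, whose range over all samples was small, 2810025M15Rik (0.927), Parp3 (0.924), Chrng (0.907), Jsrp1 (0.904) and Rhd (0.902). The samples of a tissue share their step to the other tissues, so these coefficients describe 4 tissues more than 19 samples. Among the members, Hey2 and Heyl ran together at r = 0.94, Jag2 with Hes1 at 0.91 and with Notch1 at 0.90, and Jag1 with none above 0.66.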

How the data were processed

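RNA of 19 pools was hybridised to MOE430 2.0 arrays. The deposited values are linear intensity per probe set, which the authors had normalized between arrays. The sources name GCOS 1.4, MAS5 and PLIER but do not say which of them made these values. Detection calls were not used. Each deposited intensity was turned into a log2 value and normalized no further. The arrays hold 45101 probe sets, 64 of them controls, which were dropped, and 41549 exceeded 20 in 1 or more samples and were tested. Symbols came from the platform annotation, where 34945 probe sets have 1 symbol, 932 several and 9160 none, and all 10 members matched RefSeq.

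Tests were 2-sided moderated tests of limma (version 3.58.1, R 4.3.3, Benjamini-Hochberg over all tested probe sets), tested on simulated data. UGE against UGM, and epidermis against dermis, were fitted on their own samples, and the 2 comparisons between sites and the interaction in 1 fit of all 4 groups, so these share samples. The number of arrays limits the precision. The members and lists were chosen with earlier results of these data known. The text names the 10 members, called genes of the pathway list (up to 6 in each direction, with Dll1, Dlk1, Dll3, Hey1, Rbpj, Lfng and Mfng in any case), defining markers and, for 4 members, the 5 genes most like them. Promoters are RefSeq entries of GRCm38.p6, 250 bases before and 50 after a start, for 8 of the 10 members (all but Hes1 and Heyl). The AP-1 and GC box motifs, unlike TGGGAA, were chosen after the promoters were seen. Epidermis and dermis samples of the same number deviated together (r = 0.343, 0.108, 0.264 and 0.168), so the numbers may pair them, on these data and not on a label. However, 3 of these 8 samples correlated best with a sample of another number. The main fits were unpaired, and the replicate number entered as a block only in an alternative. With that block 5904 probe sets were called between epidermis and dermis, against 5681 in the main fit. Alternatives were quantile normalization, log2(value + 50), no filter, the methods' t-test, the replicate number as a block, another set of groups in the fit, the mean of a gene's probe sets, leaving out each replicate, and leaving out UGE replicates 2 and 3, or UGM replicate 2 and dermis replicate 1, together.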

Additional observations from a re-analysis of the deposited data

Results flagged for a closer look

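Of 40 groups tested (10 genes in 4 tissues), 3 held a sample far from the others by Dixon's criterion, which chance meets in about 1 of 20 groups. UGE replicate 1 had a Jag2 value of 9.88, with the next at 9.10. Epidermis replicate 3 had a Jag2 value of 8.68, with the next at 9.41. UGM replicate 5 had a Dll4 value of 6.54, with the next at 6.31.

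The epithelium to mesenchyme difference was unlike at the 2 sites by limma's interaction test for 4 probe sets of 3 genes. For Jag1 the interaction was -1.20 (probe set 1434070_at) and -1.55 (1421106_at), for Jag2 it was 1.48 (1426431_at), and for Hes1 it was 1.45 (1418102_at). Positive values stand for a difference that was larger, or more towards the epithelium, in the urogenital sinus than in the skin.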

How the results depend on the processing

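Of 990 values of single genes under an alternative, 933 kept their direction and side of the thresholds, 17 fell short of a threshold they had passed, 7 passed one they had missed and 33 changed sign. No called difference changed sign. With log2(value + 50), 3686 probe sets were called between epidermis and dermis (main 5681), 3296 between UGE and epidermis (4984) and 3140 between UGM and dermis (5049). The methods' t-test, at the same thresholds after Benjamini-Hochberg adjustment, called 5164 between UGE and UGM (main 5506) and 3839 between epidermis and dermis. With the mean of a gene's probe sets, 2 of the 10 genes were called between epidermis and dermis (main 5), 2 between UGE and epidermis (main 1) and 3 in the interaction (main 2), and 2 were called between UGE and epidermis with UGE replicates 2 and 3 left out, as Notch1 then reached -1.03. With the replicate block, 3 genes were called in the interaction, as Jag2 then reached 1.17 (adjusted p = 0.00663), and no other call on a member changed. Leaving out 1 replicate gave 2 to 3 genes in the interaction. The block gave 5264 probe sets between UGE and UGM, where same-numbered samples did not all correlate best with each other (r = -0.406 to 0.648).

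Sign changes were in differences near 0. UGE minus UGM of Jag1 was -0.08 without UGE replicates 2 and 3 and -0.03 with the mean of probe sets, and 0.00 to 0.15 leaving out 1 replicate. UGE minus epidermis was 0.05 for Jag2 (mean of probe sets), 0.00 for Notch2 (block), -0.12 and -0.02 for Notch3 (UGE replicates 2 and 3 out, mean of probe sets). UGM minus dermis, without UGM replicate 2 and dermis replicate 1, was 0.01 for Jag1 and 0.10 for Notch3. The interaction of Notch3 was -0.08 and -0.04 with these pairs of samples out, that of Notch4 -0.33 and -0.05, and -0.18 with log2(value + 50) and -0.02 with the mean of probe sets, and that of Hey2 0.10 with log2(value + 50) and 0.04 without UGM replicate 2 and dermis replicate 1. Leaving out 1 replicate, UGE minus epidermis was -0.12 to 0.02 for Notch2, -0.02 to 0.12 for Notch3 and -0.17 to 0.07 for Heyl, UGM minus dermis was -0.10 to 0.07 for Notch3, and the interaction was -0.01 to 0.16 for Notch3 and -0.10 to 0.24 for Notch4. The cause of these changes was not tested.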
